A study of Mus musculus with 57 samples.

Results

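The nucleus accumbens (NAc) of the heaviest ethanol drinkers was compared with that of moderately heavy drinkers within 1 inbred strain, using 11 of the 57 arrays of the series. All mice were young adult males of C57Bl/6NCrl, housed singly, that chose between a bottle of 10% (w/v) ethanol and a bottle of tap water. The bottle of ethanol was offered for 18 h a day in 16 sessions, run as blocks of drinking separated by abstinence, and NAc, prefrontal cortex (PFC) and the ventral midbrain region (VMB, which holds the ventral tegmental area) were taken 6 days after drinking had ended. Both groups therefore share the strain, the sex, the ethanol access and the abstinence, all arrays analysed here come from mice offered ethanol, and each array holds RNA of 1 region of 1 mouse. The heaviest group is mice 1, 4, 12, 13 and 17, the 5 with the highest average intake among the mice of the study, and the moderately heavy group is mice 2, 7, 8, 15, 19 and 20, the 6 that follow them in rank. Intake is not in the sample labels. The array titles carry a replicate number, which was taken as the mouse number of the ranking. The labels do not state that the numbers are the same, so both groups, each mouse number given here and the match of mice across regions rest on that assumption. No intake value entered any test, and the other 8 NAc arrays were not compared. The groups lie next to each other in the ranking, so the comparison asks whether NAc expression differs within the upper range of voluntary drinking, and not between drinkers and avoiders.

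The accumbens is the ventral part of the striatum. Most of its neurons are GABAergic projection neurons that carry dopamine receptors and make opioid or tachykinin peptides, and they receive dopamine from the ventral tegmental area and glutamate from cortex, hippocampus, amygdala and thalamus. This circuit is known for its part in reward and in the intake of ethanol and other drugs. Calcium buffers, G protein signalling, peptide receptors, synaptic vesicle proteins and chromatin regulators are the gene groups most often followed in it.

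Levels are RMA values on the log2 scale from 1 array a mouse, so that a difference of 1 is a 2-fold difference, and 19815 probesets reached 4.5 on at least 1 array of the series. The tissue was described with 15 measured striatal markers, whose mean level lay between 9.43 and 9.68 on the 11 arrays. The mean level of this list was not compared with PFC or VMB, so it does not test striatal identity. Drd3 (dopamine D3 receptor), also on the list, lay at 3.965 to 4.216 in the moderately heavy and 4.019 to 4.314 in the heaviest drinkers, below 4.5. Penk (enkephalin precursor) lay at 11.81 ± 0.12 (SD, n = 5) in the heaviest and 11.97 ± 0.10 (SD, n = 6) in the moderately heavy drinkers, Ppp1r1b (DARPP-32) at 10.86 ± 0.26 and 10.97 ± 0.17, and Drd2 (dopamine D2 receptor) at 8.60 ± 0.27 and 8.59 ± 0.22. In such tissue samples, fewer cells of a type and less RNA per cell cannot be told apart.

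Arrays that stood apart from the others were found in both groups. The arrays of mouse 1 (heaviest) and mouse 19 (moderately heavy) had scores of 42.5 and 37.4 on the first principal component, which held 53.8% of the variance, whereas the other 9 arrays lay between -20.0 and 7.15. These 2 arrays correlated with each other at r = 0.993 across probesets, and between them they held the highest value of 36.4% and the lowest value of 35.2% of probesets. Splicing factors (28 of 31 lower there than on the other 9 arrays on average), proteasome subunits (27 of 31 lower) and chaperones (23 of 26 lower) had the lowest list means of the 11 arrays on these 2. The lowest list means also fell on these 2 arrays for deacetylases and corepressors, acetyltransferases, the synaptic vesicle cycle and actin turnover. They did so too for cortical excitatory neurons and the study's synaptic vesicle genes. The arrays of mouse 17 (heaviest) and mouse 20 (moderately heavy) stood apart in 12 markers of claustrum, endopiriform and olfactory neurons, with mean levels of 7.54 and 7.61 against 6.65 to 7.04 on the other 9. Cdhr1, a cadherin of olfactory bulb projection neurons, was at 8.69 and 8.81 there against 6.39 to 7.93 elsewhere, and Dlx1, Doc2g and Th were also highest on these 2 arrays. Some results were therefore also examined without mice 1 and 19, and without mice 17 and 20. These were the NAc probeset counts by limma p and the genes that entered the alternatives described with the processing below. Their values without a pair are given where leaving it out changed the result. Counts, medians and means of gene lists, other list genes and the contrasts between regions were not recomputed without either pair. The part of these arrays in the results beyond those values was not tested.

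**Figure D1:**
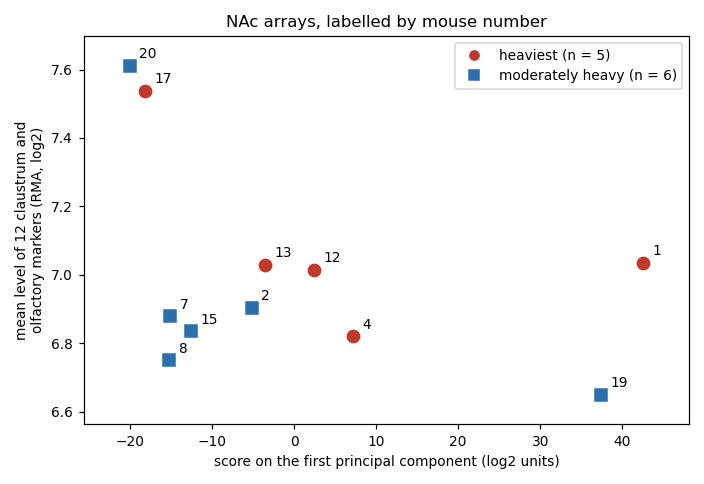
The 11 NAc arrays by their score on the first principal component (x axis, log2 units) and the mean level of 12 markers of claustrum and olfactory neurons (y axis, RMA log2), with circles for the heaviest and squares for the moderately heavy drinkers and each array labelled by mouse number. Mice 1 and 19 lie to the right at 42.5 and 37.4, and mice 17 and 20 lie at the top at 7.54 and 7.61, 1 mouse of each group in either pair.

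Heaviest and moderately heavy drinkers were not separated by any single probeset after adjustment. With limma and Benjamini-Hochberg adjustment, 0 of 19815 probesets (0%) had an adjusted p under 0.01, 0 had one under 0.05, and the smallest adjusted p was 0.983. At an unadjusted p under 0.05 there were 491 probesets (2.48%), below the 5% that evenly spread p-values would give, with 251 (1.27%) higher and 240 (1.21%) lower in the heaviest drinkers. The methods' t-test gave 588 at that threshold and 0 after Benjamini-Hochberg adjustment at 0.01. Differences were small throughout: 96.9% of probesets differed by less than 0.25 and the median difference was -0.0014. The unadjusted count was 2551 without mouse 19, 1017 without mouse 17, 324 without mouse 1, 315 without mouse 7, 290 without mouse 8 and 306 without mouse 15. Without mice 1 and 19 together it was 1599, and the smallest adjusted p was 0.609. Evenly spread p-values would give 991 probesets at that threshold. The counts without mouse 19, without mouse 17 and without mice 1 and 19 lay above this number, and the others given here lay below it. Under each of these settings, and without mice 17 and 20 (578 unadjusted), 0 probesets passed an adjusted p of 0.01. On all 11 arrays the exact permutation p, used below for single genes, was under 0.05 for 621 of the 19815 probesets, also below 991.

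**Figure D2:**
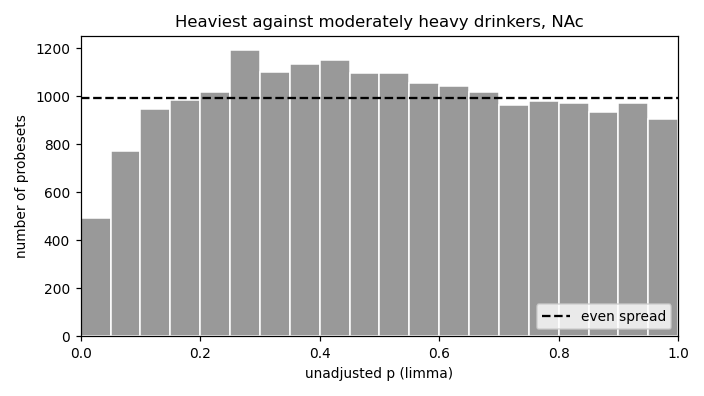
Number of probesets (y axis) in each of 20 bins of the unadjusted limma p (x axis) for heaviest against moderately heavy drinkers in NAc, with a dashed line at the 991 probesets that an even spread puts in each bin. The lowest bin, p under 0.05, holds 491 probesets and is the smallest of the 20.

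The groups did not overlap, meaning that every array of one group lay above every array of the other, for 11 probesets higher (0.0555%) and 17 lower (0.0858%) in the heaviest drinkers. The genes described next are the 13 with the smallest limma p in each direction among probesets with a single gene symbol and a mean of at least 5. They were picked for small p, each has an adjusted p of 0.983, and their exact permutation p-values (two-sided, over all assignments of the 11 arrays to groups of 5 and 6, the smallest possible being 0.00216) describe the values and do not test them anew. Among them Irf3 and Cbl did not overlap in the higher direction, and 8 genes did not overlap in the lower direction.

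The difference of the largest size among these genes was in Calb1, which encodes calbindin, a calcium-buffering protein of striatal projection neurons. Its levels in the heaviest drinkers were 6.60 in mouse 1, 7.17 in mouse 4, 7.08 in mouse 12, 6.68 in mouse 13 and 7.14 in mouse 17, and in the moderately heavy drinkers they ran from 7.29 through a median of 7.40 to 8.03. Every heaviest drinker thus lay below every moderately heavy one, with mice 1 and 13 lowest and mouse 8 highest. The means were 6.93 ± 0.27 (SD, n = 5) and 7.52 ± 0.29 (SD, n = 6), a log2 difference of -0.59 (SE 0.15, 1.51-fold lower, exact permutation p = 0.00216). Leaving out any 1 array kept the difference between -0.65 and -0.49. A second Calb1 probeset, which is brighter at a mean of 10.98, differed by -0.23 (exact permutation p = 0.095).

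Plce1, Tacr3 and Stk26 were also among the lower genes. Plce1, a phospholipase C that acts downstream of Ras, had levels of 6.57, 6.45, 6.402, 6.58 and 6.60 in heaviest mice 1, 4, 12, 13 and 17, and 6.52 to 7.43 with a median of 7.03 in the moderately heavy mice. The groups overlapped through mouse 19 alone, whose 6.52 was the lowest of its group. The difference was -0.49 (SE 0.12, exact permutation p = 0.011), and -0.60 without mice 1 and 19. Tacr3, the neurokinin 3 receptor, had levels of 5.32, 4.86, 4.91, 4.98 and 4.84 in the heaviest mice in the same order, against 5.09 to 5.97 with a median of 5.38. Here mouse 1 was the high array of the heaviest group and mouse 19 the low array of the other. Its difference was -0.47 (SE 0.14, exact permutation p = 0.015), -0.63 without mice 1 and 19, but a second Tacr3 probeset differed by 0.087. Stk26, a serine/threonine kinase of the germinal centre kinase family, lay at 7.36, 7.597, 7.25, 7.17 and 7.58 in the heaviest mice and at 7.61 to 7.96 with a median of 7.83 in the moderately heavy mice. The groups were separated by a narrow gap between mouse 4 and mouse 19. Stk26 differed by -0.43 (SE 0.096, exact permutation p = 0.0043), and its second probeset by -0.23.

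Asb11, Stam2 and Cbl each have a role in ubiquitination or in sorting ubiquitinated proteins. Asb11, a substrate receptor of an E3 ubiquitin ligase, had the smallest limma p of all these genes (unadjusted p = 0.00022, adjusted p = 0.983 with limma). Its levels were 6.41, 6.44, 6.61, 6.51 and 6.51 in heaviest mice 1, 4, 12, 13 and 17 and 6.69 to 6.98 with a median of 6.84 in the moderately heavy mice. The groups did not overlap, and the difference of -0.35 (SE 0.069, exact permutation p = 0.00216) lay between -0.38 and -0.32 whichever array was left out. Stam2, which sorts ubiquitinated receptors at endosomes, had levels of 6.65, 6.83, 6.66, 6.74 and 6.99 against 7.001 to 7.43 with a median of 7.07. Mouse 17 and mouse 2 nearly met at the border, and mouse 7 was the high array. The Stam2 difference was -0.34 (SE 0.092, exact permutation p = 0.00216), but of its 4 other probesets 2 were higher, by 0.064 and 0.13, and 2 were lower, by 0.094 and 0.012. Cbl, an E3 ligase that tags receptor tyrosine kinases, was higher, with 5.73, 5.18, 5.44, 4.98 and 4.96 in the heaviest mice against 4.51 to 4.95 with a median of 4.87. Mice 1 and 12 were the high arrays, and mice 13 and 17 lay just above the moderately heavy range. Its difference was 0.45 (SE 0.14, exact permutation p = 0.00216) and 0.33 without mouse 1, and a second Cbl probeset differed by 0.021.

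Wfs1 and Lamb1 encode proteins of the secretory route and the matrix. Wfs1, wolframin, a membrane protein of the endoplasmic reticulum, had levels of 10.08, 9.97, 9.99, 9.76 and 10.11 in heaviest mice 1, 4, 12, 13 and 17 and 10.07 to 10.57 with a median of 10.31 in the moderately heavy mice. Mouse 20 was the only moderately heavy mouse within the range of the heaviest. The difference was -0.36 (SE 0.10, exact permutation p = 0.0087). Lamb1, a laminin chain of basement membranes, had levels of 7.82, 7.62, 7.85, 7.68 and 7.71 against 7.88 to 8.08 with a median of 7.996. Its groups did not overlap, with a difference of -0.25 (SE 0.067, exact permutation p = 0.00216), whereas its 2 other probesets differed by -0.060 and -0.066.

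The remaining lower genes were Dtwd1, Mbip, Mllt10, Krt77 and Tifa. Dtwd1, a tRNA-modifying enzyme, was at 7.51 ± 0.11 (SD, n = 5) in the heaviest and 7.80 ± 0.10 (SD, n = 6) in the moderately heavy drinkers. Mbip, a subunit of a histone acetyltransferase complex, was at 7.19 ± 0.14 and 7.46 ± 0.09, and Mllt10, a cofactor of the histone methyltransferase DOT1L, at 7.36 ± 0.15 and 7.69 ± 0.12. Dtwd1 and Mbip did not overlap between groups, whereas Mllt10 did. The Mllt10 difference was -0.33, and its second probeset differed by -0.070. Krt77, a keratin, was at 5.69 ± 0.12 and 6.05 ± 0.14 without overlap, and mouse 13 at 5.49 was well below the other heaviest drinkers (5.73 to 5.78). Tifa, an adaptor of innate immune signalling, was at 5.49 ± 0.14 and 5.80 ± 0.14 with overlap.

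Among the higher genes, Hspa12b, a member of the HSP70 family known from endothelial cells, had the smallest limma p. Its levels were 5.76, 5.65, 5.96, 5.81 and 5.57 in heaviest mice 1, 4, 12, 13 and 17, and 5.22 to 5.57 with a median of 5.32 in the moderately heavy mice. The groups met at mouse 17 and mouse 2 and were otherwise separate. The difference was 0.40 (SE 0.088, 1.32-fold, exact permutation p = 0.0065). Irf3, a transcription factor of the interferon response, had levels of 6.66, 6.84, 6.63, 6.43 and 6.52 against 6.21 to 6.43 with a median of 6.36. Its groups did not overlap, although mouse 13 lay only just above mouse 19. The difference was 0.28 (SE 0.081, exact permutation p = 0.00216), and the 3 other Irf3 probesets differed by 0.054, 0.063 and 0.0072.

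Camk2a and Erc1 encode synaptic proteins. Camk2a, the alpha subunit of the calcium/calmodulin-dependent kinase of excitatory synapses, had levels of 6.09, 6.12, 5.77, 5.77 and 6.09 in the heaviest mice in the same order and 5.26 to 5.90 with a median of 5.60 in the moderately heavy mice. Mouse 2 was the only moderately heavy mouse above any heaviest drinker. The difference was 0.38 (SE 0.11, exact permutation p = 0.017). Erc1, a scaffold of the presynaptic active zone, was at 6.25 ± 0.13 and 6.02 ± 0.07, a difference of 0.22 (exact permutation p = 0.0065), but its 2 other probesets differed by 0.032 and -0.068.

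Mgp, Notch2, Lgals1 and Crabp2 were also among the higher genes. Mgp, an inhibitor of calcification made by vascular and meningeal cells, had levels of 7.59, 7.29, 7.83, 8.08 and 7.88 against 6.86 to 7.52 with a median of 7.35. Mouse 4 lay inside the moderately heavy range and the other 4 heaviest drinkers above it. The Mgp difference was 0.44 (SE 0.15, exact permutation p = 0.028), and 5 of the 11 settings that left out 1 array gave an exact permutation p of at least 0.05, with 0.071 as the largest, without mouse 13. Without mice 1 and 19 it was 0.40 (exact permutation p = 0.063), and without mice 17 and 20 it was 0.41 (exact permutation p = 0.087). Notch2, a receptor of the Notch pathway, was tightly grouped at 6.84 to 7.03 in the heaviest drinkers and spread from 6.29 to 7.05 in the moderately heavy drinkers, with mouse 20 above all others. Its difference was 0.35 (SE 0.11, exact permutation p = 0.028), and 0.31 (exact permutation p = 0.087) without mice 1 and 19. A second Notch2 probeset differed by 0.18. Lgals1, the lectin galectin-1, was at 7.98 ± 0.15 and 7.75 ± 0.08, and Crabp2, a carrier of retinoic acid, at 5.20 ± 0.24 and 4.86 ± 0.09. Both overlapped at their borders. Their differences were 0.23 (exact permutation p = 0.0087) and 0.34 (exact permutation p = 0.0043), and mouse 1 was the highest Crabp2 array at 5.57.

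Nupr1, a stress-induced nuclear protein, was at 6.35 ± 0.27 (SD, n = 5) against 6.00 ± 0.06 (SD, n = 6), with mice 1, 12 and 13 at 6.54, 6.49 and 6.60, mouse 4 within the moderately heavy range and mouse 17 just above it. A second Nupr1 probeset differed by 0.25 (exact permutation p = 0.058), beside 0.35 for the first. Hivep3, a zinc finger transcription factor, differed by 0.23 and its second probeset by -0.017. Prph, the intermediate filament peripherin, differed by 0.24, and its 3 other probesets by 0.044, 0.043 and 0.11. Erdr1, a pseudoautosomal gene measured by a probeset whose suffix marks probes shared with other transcripts, differed by 0.47 and had 2 of 11 settings with an exact permutation p of at least 0.05 when 1 array was left out, up to 0.052 without mouse 4.

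**Figure D3:**
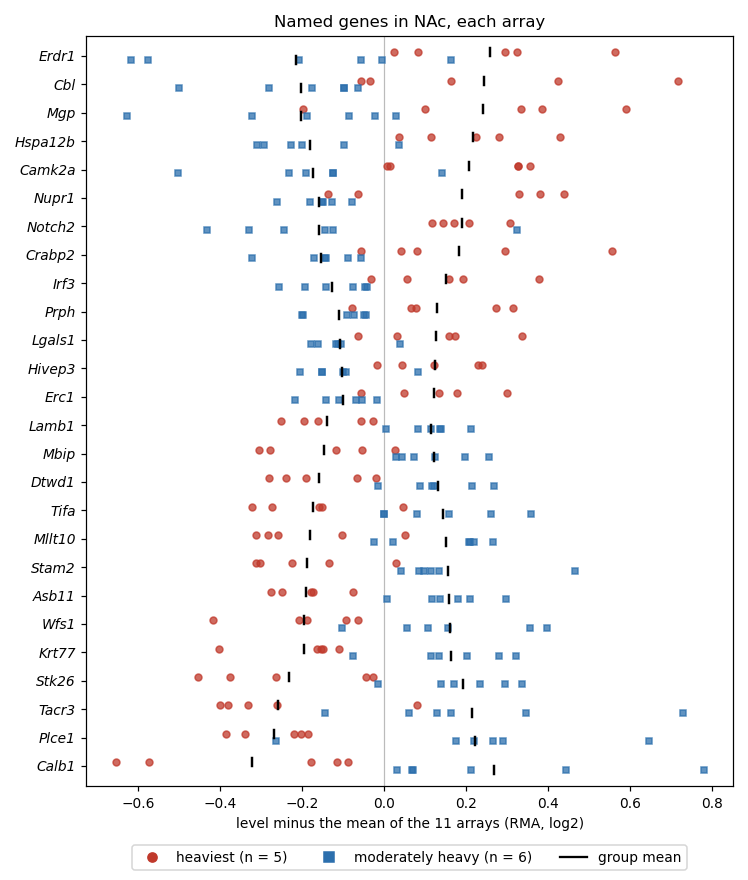
Level of each of the 26 genes on each NAc array minus its mean over the 11 arrays (x axis, RMA log2), with circles for the 5 heaviest and squares for the 6 moderately heavy drinkers and a black bar at each group mean. The genes were chosen for small p, and the symbols of the groups are separate for Irf3 and Cbl among the 13 higher genes and for Calb1, Asb11, Stk26, Krt77, Dtwd1, Lamb1, Stam2 and Mbip among the 13 lower genes.

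Gene groups were described with 1 probeset a gene, the brightest. Over all 11342 genes, 138 (1.22%) were higher and 163 (1.44%) lower at an unadjusted p under 0.05, 5785 had a positive and 5557 a negative difference, and the median was 0.0025. No gene of any group passed an adjusted p of 0.01.

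Of the chromatin remodelling genes that the study selected on these arrays for their relation to intake, 4 of 8 were higher and 4 lower in the heaviest drinkers (median 0.0064), and 0 had an unadjusted limma p under 0.05. Rbbp7, a histone-binding subunit of deacetylase complexes, had levels of 11.10 ± 0.15 (SD, n = 5) and 11.26 ± 0.12 (SD, n = 6), a difference of -0.16 (exact permutation p = 0.076). Hdac11, a histone deacetylase, was at 9.53 ± 0.10 and 9.48 ± 0.12, Kat6a, a histone acetyltransferase, at 8.61 ± 0.11 and 8.66 ± 0.09, and Ehmt2, a histone H3 methyltransferase, at 8.24 ± 0.23 and 8.26 ± 0.31. Of these genes, the means of Hdac11, Kat6a and Ehmt2 differed by less than the SD of either group. The study's 19 synaptic vesicle genes gave 10 higher and 9 lower (median 0.00028) and likewise 0 at that threshold. Stx6, a syntaxin of the trans-Golgi network, had the smallest p of them, at 6.49 ± 0.37 and 6.75 ± 0.30 (exact permutation p = 0.23). Syp (synaptophysin) was at 10.21 ± 0.13 and 10.10 ± 0.17, and Bdnf, a neurotrophin, at 5.82 ± 0.30 and 5.75 ± 0.28. Since the study chose both lists on arrays that include these, they are no independent evidence in either direction.

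Wider chromatin lists gave a similar picture. Deacetylases and corepressors had 12 of 28 genes higher and 16 lower, acetyltransferases 7 of 14 each way, and in neither was any gene at an unadjusted p under 0.05. Among 29 genes of DNA and histone methylation, 16 were higher and 13 lower, and Dnmt1, the maintenance DNA methyltransferase, was the 1 gene under that threshold. Dnmt1 had levels of 8.16, 7.83, 7.999, 8.06 and 7.99 in heaviest mice 1, 4, 12, 13 and 17 and 7.65 to 7.90 with a median of 7.83 in the moderately heavy mice. Mouse 4 was the only heaviest drinker within the range of the other group. The difference was 0.22 (exact permutation p = 0.017) and 0.18 without mice 1 and 19 (exact permutation p = 0.071), while a second Dnmt1 probeset differed by -0.094. The first Dnmt1 probeset, like that of Erdr1, has the suffix that marks probes shared with other transcripts.

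Synaptic vesicle cycle genes were higher in 35 of 51 cases (median 0.033), with 0 at an unadjusted limma p under 0.05. The 3 with the smallest p were all higher: Napb, which recycles SNARE complexes, by 0.14 (exact permutation p = 0.017), Vamp2, the vesicle SNARE, by 0.13 (exact permutation p = 0.013), and Sv2a, a vesicle membrane glycoprotein, by 0.14 (exact permutation p = 0.0043). They were picked for small p, and 621 of all 19815 probesets had an exact permutation p under 0.05. Sv2a levels were 9.84, 9.77, 9.76, 10.10 and 9.72 in heaviest mice 1, 4, 12, 13 and 17, and 9.62 to 9.75 in the moderately heavy mice. Mouse 13 stood above the rest, and mouse 17 lay within the moderately heavy range. Cplx2 (complexin 2) had the largest difference of the list at 0.57, but its values were 12.22 in mouse 1, 11.89 in mouse 4 and 11.98 in mouse 19 and 10.12 to 11.44 in the others, and the exact permutation p was 0.19.

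Glutamate receptor and scaffold genes were higher in 16 of 22 cases (median 0.089). Homer2, a postsynaptic scaffold that links metabotropic receptors to calcium stores, had levels of 9.17, 9.20, 9.45, 9.47 and 9.45 in heaviest mice 1, 4, 12, 13 and 17 and 8.79 to 9.45 with a median of 9.004 in the moderately heavy mice. Mouse 20 lay among the highest of all 11, and mouse 2 also lay above 2 of the heaviest drinkers. The difference was 0.29 (unadjusted limma p = 0.031, adjusted p = 0.983, exact permutation p = 0.058) and 0.35 without mice 17 and 20 (exact permutation p = 0.032). Leaving out 1 array gave Homer2 an exact permutation p of up to 0.11, without mouse 8. GABA-A receptor subunits, gephyrin and Gabarap were lower in 9 of 11 cases (median -0.037), with 0 at an unadjusted limma p under 0.05. Gabrg1 had the smallest p of them, at 8.35 ± 0.18 and 8.58 ± 0.34. Gabra6, Gabrg3 and Gabre in this list, and Grin2a and Grik1 in the glutamate list, had medians below 4.5 in both groups. The signs of these genes are counted although their levels are near the floor.

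In dopamine and cAMP signalling, 10 of 27 genes were higher and 17 lower (median -0.039). Gnao1, the G protein alpha subunit through which many inhibitory receptors act, had levels of 10.78, 10.88, 10.54, 10.89 and 10.48 against 10.37 to 10.62 with a median of 10.50. Mice 12 and 17 lay within the moderately heavy range. The difference was 0.22 (exact permutation p = 0.043), and 8 of the 11 settings that left out 1 array gave an exact permutation p of at least 0.05, up to 0.095 without mouse 20. Other Gnao1 probesets differed by 0.078 and 0.0010. Rgs2, a brake on Gq signalling, had levels of 10.32, 10.31, 10.38, 10.27 and 10.45 against 10.19 to 10.72 with a median of 10.65. All moderately heavy mice but mouse 19 lay above every heaviest drinker. Its difference was -0.23 (exact permutation p = 0.043), -0.30 without mouse 19, and 9 of the 11 settings gave an exact permutation p of at least 0.05, up to 0.081 without mouse 13. Without mice 17 and 20 the Rgs2 difference was -0.26 (exact permutation p = 0.056). A second Rgs2 probeset differed by -0.14. Gnb1, a G protein beta subunit, had the largest difference of the list at 0.77 (exact permutation p = 0.20), with 11.71 in mouse 1, 12.29 in mouse 4 and 11.98 in mouse 19 and 9.53 to 10.73 in the other 8 mice.

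Neuropeptides and their receptors were higher in 21 of 27 cases (median 0.052). Tacr3 is counted as higher here by its brightest probeset (0.087), unlike the probeset named above. Oprd1, Sstr1 and Galr1 had medians below 4.5 in both groups, near the floor. The list means overlapped, at 6.88 to 6.99 in the heaviest and 6.84 to 6.98 in the moderately heavy drinkers. Mouse 1 and mouse 19 had the highest list mean of their group. Cckbr, the cholecystokinin B receptor, had levels of 8.44, 8.56, 8.47, 8.39 and 8.25 in heaviest mice 1, 4, 12, 13 and 17 and 7.94 to 8.43 with a median of 8.18 in the moderately heavy mice, with mouse 20 again the high array of its group. The difference was 0.24 (exact permutation p = 0.037), and 7 of the 11 settings gave an exact permutation p of at least 0.05, up to 0.086 without mouse 4. Without mice 1 and 19 the Cckbr difference was 0.26 (exact permutation p = 0.056). A second Cckbr probeset differed by 0.091. Crhr1, the corticotropin-releasing hormone receptor, differed by 0.25 (unadjusted limma p = 0.038, exact permutation p = 0.061). Leaving out 1 array gave Crhr1 an exact permutation p of up to 0.14, without mouse 1. The Crhr1 difference was 0.31 without mice 17 and 20 (exact permutation p = 0.048) and 0.23 without mice 1 and 19 (unadjusted limma p = 0.073). A second Crhr1 probeset differed by 0.028. Nts, neurotensin, had the most negative difference of the list, at 7.85 ± 0.62 and 8.38 ± 0.45 (-0.54, exact permutation p = 0.13).

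The striatal markers themselves were higher in 4 and lower in 11 of 15 genes (median -0.0093). Isl1, a transcription factor, was at 7.48 ± 0.30 (SD, n = 5) and 7.82 ± 0.29 (SD, n = 6). Its difference was -0.34 (exact permutation p = 0.087), and -0.48 without mice 17 and 20 (exact permutation p = 0.024). Leaving out 1 array gave Isl1 an exact permutation p of up to 0.21, without mouse 13. A second Isl1 probeset differed by -0.13. Penk differed by -0.16 (exact permutation p = 0.039) and Pdyn, the dynorphin precursor, by -0.17 (exact permutation p = 0.12), whereas Tac1, the substance P precursor, differed by -0.0093, Pde10a, a cyclic nucleotide phosphodiesterase, by -0.0042 and Drd2 by 0.0033. Interneuron markers were lower in 8 of 13 genes, and Lhx8, a transcription factor of cholinergic neurons, differed by -0.59 (exact permutation p = 0.11) with mice 8 and 15 high at 6.96 and 7.61 and the other 9 at 5.62 to 6.35.

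Stress-related lists held 1 gene each at an unadjusted p under 0.05. Sgk1, a kinase induced by glucocorticoids, had levels of 8.79, 9.37, 9.10, 9.35 and 9.39 in heaviest mice 1, 4, 12, 13 and 17 and 9.39 to 9.85 with a median of 9.53 in the moderately heavy mice. The groups met at 9.39 and were otherwise separate, with mouse 1 lowest and mouse 20 highest. The difference was -0.36 (SE 0.12, exact permutation p = 0.011), and the other glucocorticoid-responsive genes were 7 higher and 8 lower. Hspb1, a small heat shock protein, differed by 0.17 (unadjusted limma p = 0.026, exact permutation p = 0.0065), and by 0.13 without mice 1 and 19 (unadjusted limma p = 0.066). The chaperones as a list were higher in 10 and lower in 16 of 26 genes. Immediate early genes (14 of 23 higher), clock genes (6 of 18), neurotrophins and receptors (6 of 10), ethanol and acetaldehyde metabolism (7 of 16) and actin turnover (12 of 30) held 0 genes at that threshold.

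The housekeeping groups held 0 genes at an unadjusted p under 0.05. Splicing factors were lower in 27 of 31 cases (median -0.068), proteasome subunits in 23 of 31 (median -0.044) and oxidative phosphorylation genes in 39 of 59 (median -0.021), whereas cytoplasmic ribosomal proteins were higher in 17 of 26 (median 0.016). The splicing factor means ran from 9.34 to 9.75 in the heaviest and from 9.42 to 9.74 in the moderately heavy drinkers, and the lowest array of each group was mouse 1 and mouse 19, respectively.

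List means of the markers of other cell types overlapped between the groups. Oligodendrocyte markers were lower in 11 of 16 genes (median -0.088), with list means of 9.14 to 9.46 in the heaviest and 9.16 to 9.50 in the moderately heavy drinkers, and Cldn11, a tight junction protein of myelin, differed by -0.23 (exact permutation p = 0.045), by -0.30 without mouse 19. Leaving out 1 array took the exact permutation p of Cldn11 to at least 0.05 in 9 of 11 settings, up to 0.095 without mouse 1, and without mice 17 and 20 its difference was -0.25 (exact permutation p = 0.071). Astrocyte markers were higher in 12 of 15 genes (median 0.062), with list means of 9.04 to 9.23 and 8.89 to 9.13, and Glul, glutamine synthetase, differed by 0.16 (exact permutation p = 0.028). All 8 markers of cortical excitatory neurons were higher (median 0.072), each with an exact permutation p of 0.39 or more, and their means of 6.59 to 7.06 and 6.54 to 6.77 overlapped. The 12 claustrum and olfactory markers had 10 higher (median 0.12), with means of 6.82 to 7.54 and 6.65 to 7.61. Microglia (7 of 14 higher), endothelial and mural cells (9 of 15), choroid plexus and ependyma (3 of 5), blood (4 of 5) and septum, thalamus and hypothalamus (8 of 15) held 0 genes at an unadjusted limma p under 0.05. Ttr, the defining transcript of choroid plexus, was at 5.60 to 6.47. Of 8 listed blood genes, 5 had a probeset with 1 symbol. Among them Hba-a1 of red cells was at 4.01 to 4.61 and Alas2 at 5.60 to 6.79. The part of these cell types in the differences above was not tested.

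**Figure D4:**
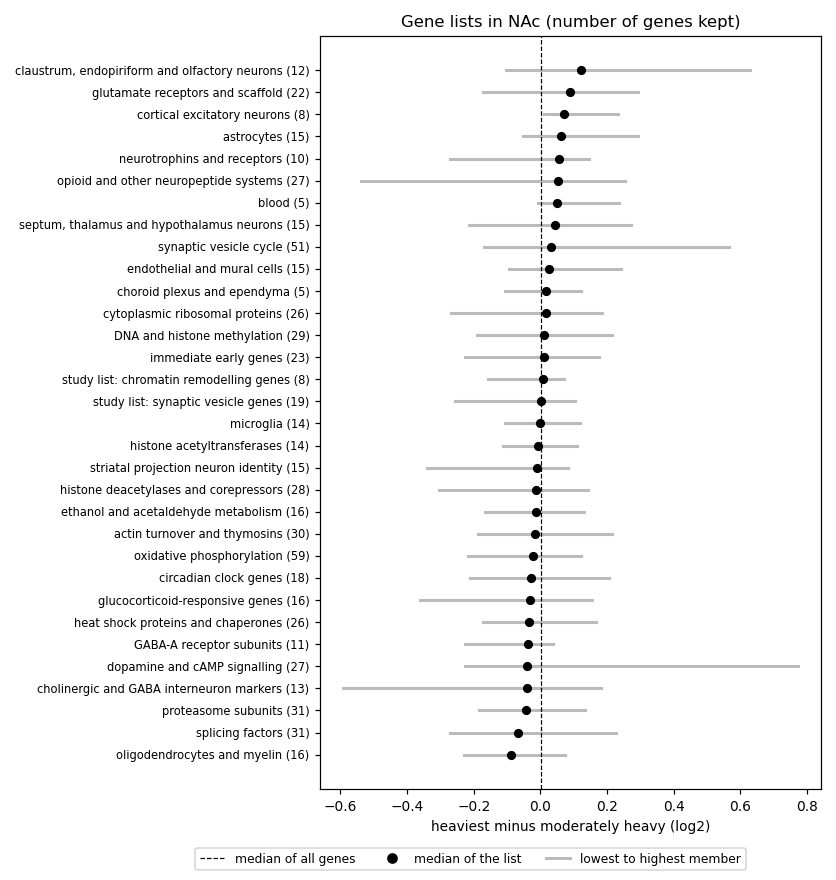
Difference between heaviest and moderately heavy drinkers in NAc (x axis, log2) for 32 gene lists, with a dot at the median of each list, a grey line from its lowest to its highest member, and the number of genes kept in brackets. List medians lie between -0.088 (oligodendrocytes and myelin) and 0.12 (claustrum and olfactory neurons), beside 0.0025 for all genes (dashed line).

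Whether the NAc differences were shared by PFC and VMB was examined on the same-numbered arrays of these regions, with 5 arrays against 5 in each of these regions. A limma fit over the 3 regions, with the array number, taken as the mouse, as a block, found 0 of 19815 probesets (0%) at an adjusted p under 0.01 for NAc against PFC and 0 (0%) for NAc against VMB, with smallest adjusted p-values of 0.999 and 0.98. At an unadjusted p under 0.05 there were 622 probesets (3.14%) for PFC and 630 (3.18%) for VMB. Because the 26 genes were picked for their NAc difference, a larger difference in NAc is built into their choice, and the values of the other regions are given as a description.

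Of the 13 genes higher in NAc, 10 were higher in PFC and 5 in VMB, and of the 13 lower in NAc, 4 were lower in PFC and 6 in VMB. Over all probesets, 4850 of the 9822 higher in NAc were higher in PFC and 4689 in VMB, and 5051 of the 9993 lower in NAc were lower in PFC and 5049 in VMB. Calb1 differed by -0.59 in NAc, 0.092 in PFC and 0.085 in VMB. Lamb1 differed by -0.25 in NAc but by 0.24 in PFC, from 5.37 ± 0.13 in the moderately heavy to 5.61 ± 0.17 in the heaviest drinkers (n = 5 each), and by 0.15 in VMB. Camk2a, which was at 8.68 ± 0.19 and 9.08 ± 0.50 in the PFC of heaviest and moderately heavy drinkers, differed by -0.41 there against 0.38 in NAc. Notch2 differed by 0.35 in NAc, 0.28 in PFC and -0.42 in VMB, and Cbl by 0.45, 0.14 and -0.26. Erdr1 was the 1 gene with a difference over 0.3 and of the same sign in all 3 regions, at 0.47, 0.31 and 0.36. The smallest adjusted limma p of the contrasts between regions was 0.98 among these genes.

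**Figure D5:**
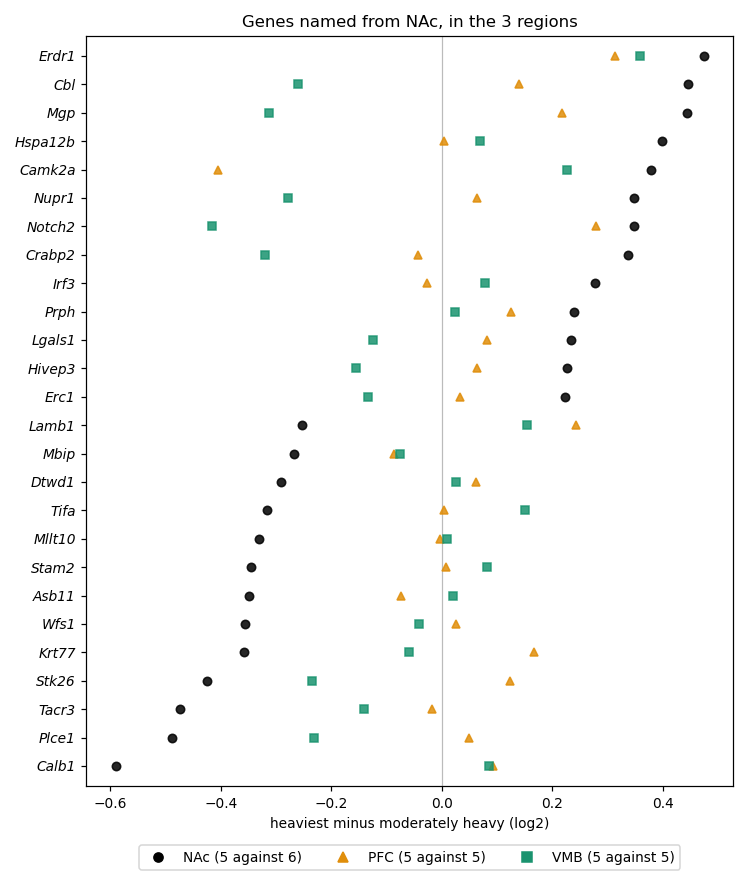
Difference between heaviest and moderately heavy drinkers (x axis, log2) for the 26 genes in NAc (circles), PFC (triangles) and VMB (squares). The NAc values span -0.59 to 0.47 by the choice of the genes, the PFC values -0.41 to 0.31 and the VMB values -0.42 to 0.36.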

How the data were processed

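Total RNA of single mice was hybridized to Affymetrix mouse genome oligonucleotide arrays, 1 array a region. The authors processed the scans in GCOS and deposited RMA values on the log2 scale, and the RMA version and which arrays were normalized together are not given in the sources used here. No normalization was added. Control probesets were left out. Of the other 22626, 2811 that stayed below 4.5 on all 57 arrays were removed, as in the study's methods. Symbols came from the platform annotation, brought up to date through gene IDs: 20380 probesets had 1 symbol, 691 several and 1555 none. Genome positions are not given, since no build is named.

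Groups were compared with limma 3.58.1 in R 4.3.3 (lmFit, eBayes), with Benjamini-Hochberg adjustment over 19815 probesets and the 1% false discovery rate of the study's methods, and with exact two-sided permutation tests for single genes. Regions were compared by interaction contrasts with the mouse number as a random block (duplicateCorrelation, consensus correlation 0.0827), since the 3 regions were taken from the same mice and the number is assumed to name the mouse. The PFC array of mouse 20, whose labels conflict, served in the filter alone. Named genes were the 13 of smallest p in each direction with 1 symbol and a mean of at least 5, and up to 4 genes a list by smallest p, of which those at an unadjusted p under 0.05 entered the alternatives (36 genes in all); other list genes named here were chosen after their values were seen. The members and lists were chosen with earlier results of these data known. Precision is limited by the number of arrays. The fits were tested on simulated data. Alternatives were the filter, quantile normalization, array weights, a trended robust prior, the first principal component as covariate, 1 probeset a gene, the methods' t-test, leaving out each array or the 2 mice at the border of the groups (4 and 8), and, chosen after seeing the data, leaving out mice 1 and 19 or mice 17 and 20.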

Additional observations from a re-analysis of the deposited data

Results flagged for a closer look

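Of 94 sets of values examined (5 or 6 arrays of a group for each named gene and each cell type list), 7 held 1 array far from the rest of its group by Dixon's test, which flags about 1 in 20 sets by chance. Mouse 19 was low among the moderately heavy drinkers in Rgs2 (10.19, others 10.55 to 10.72), in Cldn11 (8.88, others 9.24 to 9.43) and in the mean of the cortical excitatory markers (6.54, others 6.72 to 6.77). Mouse 7 was high in the same group in Lgals1 (7.89, others 7.68 to 7.75) and in Stam2 (7.43, others 7.001 to 7.10). Mouse 20 was high in the mean of the claustrum and olfactory markers (7.61, others 6.65 to 6.90). Among the heaviest drinkers, mouse 13 was low in Krt77 (5.49, others 5.73 to 5.78).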

How the results depend on the processing

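The count of 0 probesets at an adjusted p under 0.01 held under all alternatives run, and leaving out 1 array gave 0 to 0. The unadjusted count of 491 was 292 with a mean of at least 6, 1805 with array weights, 821 with the first principal component as covariate, 234 without the 2 mice at the border of the groups and 1599 without mice 1 and 19. Leaving out 1 array gave 290 to 2551. The counts of other settings stayed within 1.5 times of 491, whatever the number tested. No filter gave 595 of 22626 probesets, and 1 probeset a gene gave 328 of 11342. The cause of these shifts was not tested. No paired analysis was possible between heaviest and moderately heavy drinkers because the groups share no mouse. The contrasts between regions, whose same-numbered arrays are taken to be of 1 mouse, gave 0 probesets with that number as a block, 0 with no replicate block (506 for PFC and 487 for VMB at an unadjusted p under 0.05) and 0 without mouse 20 in NAc. Of the 36 named genes, 0 changed sign when 1 array or either pair of mice was left out or after quantile normalization. Other probesets of the same gene had the opposite sign for Hivep3 (-0.017), Erc1 (-0.068), Stam2 (0.064 and 0.13), Tacr3 (0.087) and Dnmt1 (-0.094). The other 25 of 31 kept the sign with an exact permutation p of 0.05 or more. Some of these differences were very small, such as 0.0010 for Gnao1 and 0.0072 for Irf3. After quantile normalization Gnao1 lost an exact permutation p under 0.05 (0.065). Without mice 17 and 20 so did Mgp (0.087), Rgs2 (0.056) and Cldn11 (0.071), and without mice 1 and 19 Mgp (0.063), Notch2 (0.087), Cckbr (0.056) and Dnmt1 (0.071). Leaving out 1 array did so for Mgp, Erdr1, Gnao1, Rgs2, Cckbr and Cldn11, in 40 settings in all.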
